A study of Mus musculus with 42 samples.

Results

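Collagens and laminins are the main structural proteins of the extracellular matrix, and the 55 protein-coding mouse genes whose symbols name a collagen chain (44 genes) or a laminin chain (11 genes) are described here. They were chosen by symbol alone, among the 22046 protein-coding genes of the 54532 genes with a read count. Female mice labelled C57BL/6 (C57BL/6NHsd in the study's methods) were weaned at 3 weeks of age and fed AIN93G, a standard diet, or for the same 3 weeks a high-fat diet (HFD) modified from it. Soybean oil supplied 16% of the energy in AIN93G and 45% in the HFD. Poly(A) RNA labelled as liver was sequenced from 3 mice per diet at each of 7 time points spaced 4 h apart from ZT 0 to ZT 24, where ZT 0 is the start of the light phase and ZT 12 the start of the dark phase. The labels give no genotype or treatment other than the diet, and the mice were 6 weeks old when tissue was taken. The time series was made to ask whether the HFD changes daily patterns of gene expression in the pubertal liver.

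The 42 libraries, labelled as liver without exception, were of 2 kinds. In 32 libraries Alb, which encodes serum albumin and marks hepatocytes, lay between 73320 and 130500 CPM (counts per 1000000 counts of a library, after TMM scaling), and these are called liver libraries below. In the other 10 libraries Alb lay between 11.25 and 65.71 CPM, whereas Adipoq, which encodes the fat cell hormone adiponectin, lay between 852.8 and 2019 CPM against at most 5.6 CPM in the liver libraries. These adipocyte-rich libraries comprised the 6 that were labelled AIN93G at ZT 16 or ZT 20, together with replicates 1 and 2 of both diets at ZT 24. Total counts ranged from 14592481 to 19815356 in the liver libraries and from 15687740 to 21368409 in the adipocyte-rich libraries. Since every AIN93G library of ZT 16 and ZT 20 was adipocyte-rich and every HFD library of these times was not, diet, time, and tissue content cannot be told apart there. The liver libraries of ZT 0 to 12, with 12 per diet, carry the comparison of the diets.

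A collagen molecule is a helix of 3 chains, and the chains of each type are encoded by separate genes. Fibrillar collagens such as types I, III, and V form the tensile fibers of connective tissue. Type IV builds the network of basement membranes, type VI forms beaded filaments around cells, and other types sit on fibrils, span the plasma membrane, or carry sugar chains in vessel walls. A laminin joins an alpha, a beta, and a gamma chain, and laminins lay down the first sheet of a basement membrane. In healthy liver the sinusoids lack a continuous basement membrane and stellate cells make most of the sparse fibrillar collagen, whereas each fat cell is wrapped in a basement membrane of type IV collagen and laminin, with type VI filaments around it.

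Promoter sequence is shown for the members on which the results below turn, namely the most abundant member in liver, the most abundant member in the adipocyte-rich libraries, and the member whose level changed most over the day. The 22 bases over which the 5′ ends of the Col4a1 and Col4a2 genes, read from opposite strands, overlap are shown too, and they lie inside the first exons of both genes. RefSeq windows on GRCm38.p6 were matched for 40 of the 55 members, and 44 windows of 250 bases before a start site were searched on both strands. Capitals mark matches to CACGTG (an E-box, the motif of clock factors), AGGTCA (a nuclear receptor motif), GGGCGG (a GC box), TATAAA, or CCAAT, none of which overlapped another below. The sequences run 5′ to 3′ on the strand of the gene, and the last is on the plus strand.
Col18a1, chr10:77166549-77166780, minus strand, 232 bases before the first exon: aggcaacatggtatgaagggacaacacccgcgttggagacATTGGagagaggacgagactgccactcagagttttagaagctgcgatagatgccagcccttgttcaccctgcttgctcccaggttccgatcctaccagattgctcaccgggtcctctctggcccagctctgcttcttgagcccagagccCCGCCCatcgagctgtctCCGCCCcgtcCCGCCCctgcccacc
Col3a1, chr1:45311288-45311537, plus strand, 250 bases before the start: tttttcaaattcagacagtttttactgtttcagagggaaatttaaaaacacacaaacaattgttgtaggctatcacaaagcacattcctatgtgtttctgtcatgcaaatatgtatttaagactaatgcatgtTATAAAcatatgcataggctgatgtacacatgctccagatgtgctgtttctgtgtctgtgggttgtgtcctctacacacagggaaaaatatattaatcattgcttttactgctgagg
Col27a1, chr4:63215162-63215411, plus strand, 250 bases before the start: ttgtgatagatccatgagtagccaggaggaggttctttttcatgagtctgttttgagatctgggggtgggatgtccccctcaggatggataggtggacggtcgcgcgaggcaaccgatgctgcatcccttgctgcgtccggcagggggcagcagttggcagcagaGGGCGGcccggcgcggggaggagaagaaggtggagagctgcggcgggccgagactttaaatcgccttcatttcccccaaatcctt
Col4a1 and Col4a2, chr8:11312805-11312826, 22 bases from the Col4a2 start on the plus strand to the Col4a1 start on the minus strand: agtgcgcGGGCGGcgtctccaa
The E-box CACGTG was found in 0 of the 44 member windows and in 6.02% of all 32851 windows of that length, and the GC box in 24 member windows (54.5%) and 32.7% of all windows. AGGTCA was found in 8 member windows (18.2%, against 14% of all), TATAAA in 5 (11.4%, against 12.4%), and CCAAT in 14 (31.8%, against 33.8%). A match is a description of letters in these windows, and it does not show that a factor was bound.

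The members held between 0.106% and 0.176% of all counts in a liver library and between 0.70% and 1.78% in an adipocyte-rich library. In liver, Col18a1 alone accounted for between 57.7% and 77.9% of the members' counts, with a median of 69.3%. In the adipocyte-rich libraries its share was between 1.16% and 2.09%. Between 37 and 45 members had more than 3 counts in a given liver library, and between 48 and 53 in a given adipocyte-rich library. A mean count of at least 25 was reached by 29 members in the 24 liver libraries of ZT 0 to 12 and by 44 members in the adipocyte-rich libraries. In bulk RNA, fewer cells of a type and less RNA per cell cannot be told apart.

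**Figure D1:**
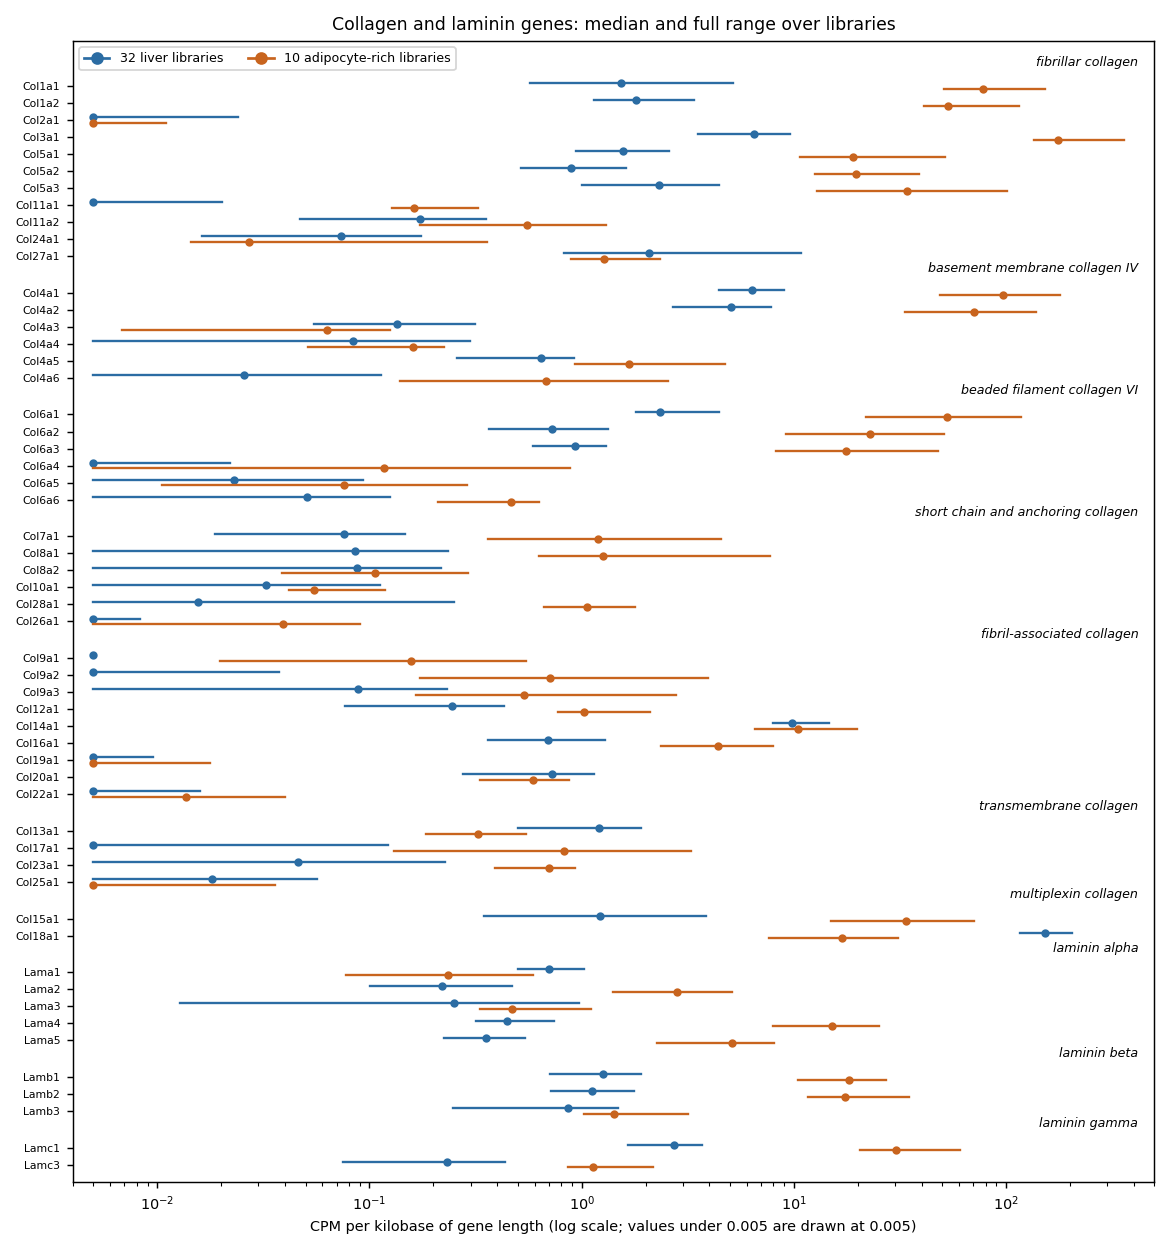
Level of 54 of the 55 genes in CPM per kilobase (horizontal log axis, values under 0.005 drawn at 0.005), with the median as a point and the full range over libraries as a line, for 32 liver libraries (blue) and 10 adipocyte-rich libraries (orange). Col18a1 is the only gene with every liver library above every adipocyte-rich library, and of all 55 genes 33 lie wholly higher in the adipocyte-rich libraries. These include genes almost without counts in liver, such as Col9a1 and Col9a2. Of the 29 with a mean count of at least 25 in each kind of library, 21 lie wholly higher and 1 wholly lower. Of all 11147 genes at that count, 11.9% and 14.2% do so.

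The order of levels was read in CPM per kilobase of gene length. Among the 55 members in liver libraries, Col18a1, a heparan sulfate proteoglycan of basement membranes whose end piece is endostatin, stood first at a median of 152.5 CPM per kilobase. It was followed by Col14a1 at 9.76, Col3a1 at 6.46, Col4a1 at 6.36, Col4a2 at 5.04, and Lamc1 at 2.74 CPM per kilobase. Each of these genes after Col18a1 overlapped its neighbor in the order, and the range of Col4a1 lay within that of Col3a1. In the adipocyte-rich libraries Col3a1 stood first at a median of 175.5 CPM per kilobase, followed by Col4a1 at 96.5, Col1a1 at 77.7, Col4a2 at 70.3, Col1a2 at 53.2, and Col6a1 at 52.95 CPM per kilobase. Neighbors in this order overlapped as well, and Col18a1 was at 16.8 CPM per kilobase there.

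Col2a1, the collagen of cartilage, and Col19a1 had at most 3 counts in every library of the series. In every liver library this held for 7 members, namely these genes and Col6a4, Col9a1, Col9a2, Col22a1, and Col26a1. Col9a1 had 0 counts in all 32 liver libraries, and a count of 0 allows a level of up to 3 counts per library by counting error alone. Among the other sparse members, Col10a1, Col24a1, Col25a1, and Col6a5 were at or under 2.74 CPM in every library, and Col9a3 reached 10.8 CPM in 1 adipocyte-rich library. Every adipocyte-rich library lay above every liver library for 33 of the 55 members, the reverse held for Col18a1 alone, and the ranges overlapped for 21. Without TMM the counts were 34 and 1. Among the 29 members whose counts averaged at least 25 in each kind of library, 21 lay wholly higher in the adipocyte-rich libraries and 1 wholly lower, while 11.9% and 14.2% of the 11147 genes at that count did so.

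The question of whether the HFD changed these genes in liver was answered with the 12 libraries per diet of ZT 0 to 12. None of the 29 members tested was called with edgeR's quasi-likelihood test at an adjusted p under 0.05, against 22 of 12009 genes (0.183%). With an unadjusted p under 0.05 there were 2 members, Lamb3 and Col15a1, and DESeq2 called 1, Lamb3, among 94 of all 12009 genes. The median log2 fold change of the members was -0.01, against -0.00 over all genes, with 13 members higher and 16 lower on the HFD and a median SE of 0.16.

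**Figure D2:**
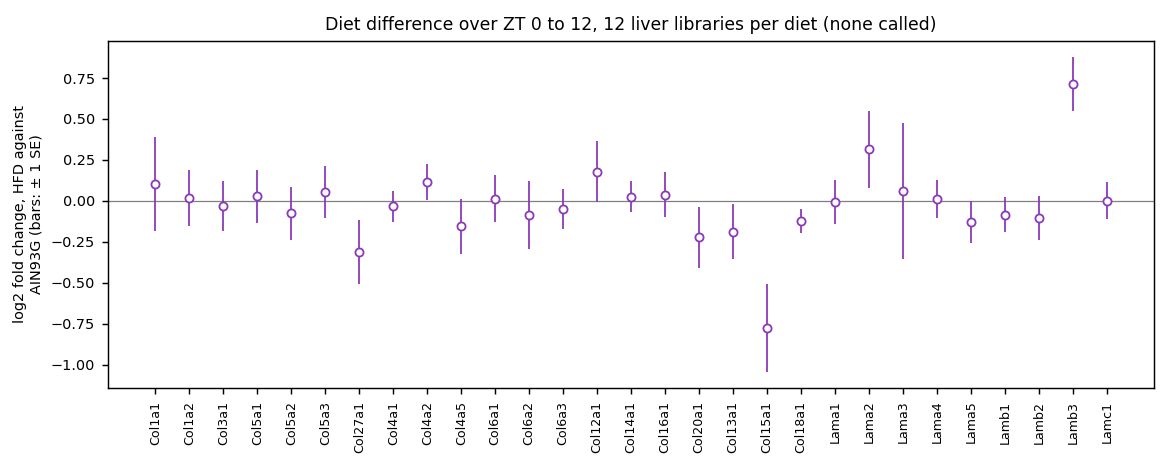
Log2 fold change of the HFD against AIN93G over ZT 0 to 12 (vertical axis) for the 29 genes tested (horizontal axis), with bars of 1 SE and 12 liver libraries per diet. Open points are differences not called, and the farthest from 0 are Col15a1 at -0.78 and Lamb3 at 0.71.

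Lamb3 encodes the beta chain that joins Lama3 in the laminin of epithelial anchoring sites. Its level was 4.17 ± 1.28 CPM (SD, n = 12) on AIN93G, from 1.64 to 6.74, and 6.83 ± 1.47 CPM (SD, n = 12) on the HFD, from 4.06 to 9.80, so that the diets overlapped. The fold was 1.64 (log2 0.71, SE 0.17), with an unadjusted p of 0.000342 and an adjusted p of 0.100. Its partner chain Lama3 had a log2 fold change of 0.06 (SE 0.42). Lamb3 lay past the threshold without the library of AIN93G ZT 12 replicate 1 (adjusted p = 0.0141), with DESeq2 (adjusted p = 0.00743), and with no filter on low counts (adjusted p = 0.00615), a fit that gave each gene's own spread little weight (prior degrees of freedom 76.95 against 4.55). Col15a1, a basement membrane collagen that carries sugar chains, was at 12.0 ± 5.80 CPM (SD, n = 12) on AIN93G and 6.98 ± 3.31 CPM (SD, n = 12) on the HFD, a difference of -0.78 on the log2 scale (SE 0.27, adjusted p = 0.382). The groups of Col15a1 overlapped, at 4.91 to 24.5 CPM against 2.96 to 12.15 CPM, and it was called in the same fit with no filter (adjusted p = 0.00356).

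For the fibrillar chains Col1a1, Col1a2, and Col3a1 the diet log2 fold changes were 0.11 (SE 0.29), 0.02 (SE 0.17), and -0.03 (SE 0.15). Those of the basement membrane chains Col4a1 and Col4a2 were -0.03 (SE 0.10) and 0.11 (SE 0.11), and those of Col6a1, Col6a2, and Col6a3, the beaded filament chains, lay between -0.09 and 0.01. Col18a1 was at -0.12 (SE 0.07, adjusted p = 0.683). None of these was called, which does not show that the diets gave equal levels.

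At single times, with 3 libraries per diet, the number of members called was 0 of 29 at ZT 0, where 4 members had an unadjusted p under 0.05 and edgeR called 0.0748% of all genes. DESeq2 called 1 member at ZT 0, among 106 of all 12030 genes. With edgeR the number was also 0 of 29 at ZT 4 (3 members with an unadjusted p under 0.05, 0 with DESeq2), 0 of 30 at ZT 8 (3 and 0), and 0 of 29 at ZT 12 (1 and 0), times at which edgeR called 0% of all genes. With DESeq2 the numbers of all genes called at ZT 4, 8, and 12 were 28, 59, and 5. The 1 member that DESeq2 called at ZT 0 was Col27a1, at 26.5, 30.2, and 35.8 CPM on AIN93G and 16.7, 17.9, and 19.4 CPM on the HFD. These groups did not overlap (log2 fold change -0.77, SE 0.14, adjusted p = 0.1945 in edgeR). With ZT 12 left out, edgeR called Col27a1 lower on the HFD over ZT 0 to 8 (log2 -0.58, adjusted p = 0.0341). The interaction of diet and time over ZT 0 to 12 was called for 0 of 29 members (0 with an unadjusted p under 0.05, 0 with DESeq2) and 0% of all 12009 genes in edgeR, so that no member's diet difference was shown to vary with time.

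Col27a1, a fibrillar collagen best known from growth plate cartilage, was the member whose level moved most with the time of day in liver. Over ZT 0 to 12 it was the 1 member of 29 called for time with edgeR (adjusted p = 0.00263), where 6.29% of all genes were called. On AIN93G its 3 libraries were at 26.5, 30.2, and 35.8 CPM at ZT 0, at 15.6, 19.8, and 19.8 CPM at ZT 4, at 18.2, 19.0, and 27.4 CPM at ZT 8, and at 31.1, 32.9, and 70.6 CPM at ZT 12. The ZT 12 libraries were all above those of ZT 4 and ZT 8 and overlapped those of ZT 0.

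On the HFD, the diet with liver libraries at every time, the levels of Col27a1 were 16.7, 17.9, and 19.4 CPM at ZT 0, then 13.1, 13.7, and 18.7 CPM at ZT 4 and 10.7, 11.3, and 17.3 CPM at ZT 8. They were 20.1, 70.9, and 99.9 CPM at ZT 12, then 47.7, 71.1, and 141 CPM at ZT 16 and 36.7, 53.9, and 59.6 CPM at ZT 20. All 6 libraries of ZT 16 and ZT 20 lay above all 9 of ZT 0 to 8. So did the 3 libraries of ZT 12, of which the lowest, at 20.1 CPM, was close to the highest of ZT 0 to 8, at 19.4 CPM. The mean of ZT 16 and 20 was 3.01-fold that of ZT 0 to 12 on the fitted scale (log2 1.59, SE 0.26, adjusted p = 0.00367). The biological coefficient of variation of Col27a1 was 0.33 against a median of 0.18 over all genes tested.

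A 24 h cosine fitted to the 18 HFD libraries gave Col27a1 a peak at ZT 16.0 and an amplitude of 1.44 on the log2 scale (adjusted p = 0.000675). The single HFD liver library of ZT 24 was at 89.9 CPM, above the 3 HFD libraries of ZT 0, and the single AIN93G liver library of ZT 24 was at 32.98 CPM, within the range of AIN93G at ZT 0. In the adipocyte-rich libraries Col27a1 lay between 11.6 and 30.5 CPM.

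**Figure D3:**
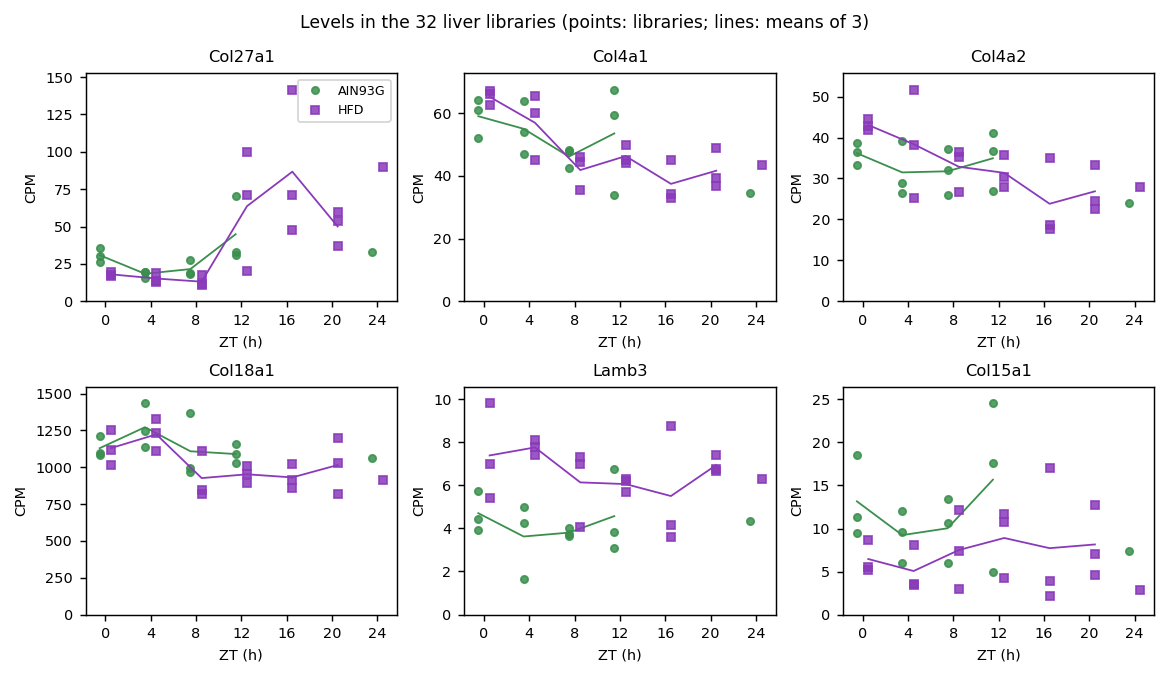
CPM (vertical axis, from 0) by ZT in h (horizontal axis) for 6 genes in the 32 liver libraries, with 1 point per library, green circles for AIN93G, purple squares for the HFD, and lines through means of 3 libraries. Col27a1 is at 10.7 to 19.4 CPM on the HFD at ZT 0 to 8 and at 36.7 to 141 CPM at ZT 16 and 20.

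Of the 29 members tested for time over ZT 0 to 20 on the HFD, 2 were called, Col27a1 (adjusted p = 0.00534) and Col4a1 (adjusted p = 0.0403), while 2.71% of all genes were called. The call of Col4a1 was lost in 14 of 18 fits that each left out 1 library (adjusted p from 0.0501 to 0.0931). In the contrast of ZT 16 and 20 with ZT 0 to 12 on the HFD the same 2 genes were called, 1 in each direction, against 3.31% of all genes (1.77% higher, 1.55% lower). Col4a1, the more abundant chain of the ubiquitous type IV network, was at 62.5, 65.9, and 67.2 CPM at ZT 0, at 45.1 to 65.6 CPM at ZT 4, at 35.4 to 45.9 CPM at ZT 8, and at 44.1 to 49.8 CPM at ZT 12 on the HFD. It was at 33.03, 34.3, and 45.0 CPM at ZT 16 and at 36.7, 39.3, and 48.9 CPM at ZT 20, and the single liver library of ZT 24 was at 43.3 CPM. The libraries of ZT 0 lay above all those of ZT 8 to 20, and those of ZT 8 and ZT 12 overlapped those of ZT 16 and ZT 20. It fell 1.32-fold at ZT 16 and 20 against ZT 0 to 12 (log2 -0.40, SE 0.10, adjusted p = 0.0435). The call in this contrast held without replicate 3 of ZT 4, 8, 12, or 20 or replicate 1 of ZT 16, and it was lost without any other single library, with adjusted p from 0.05035 to 0.1435.

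Col4a2, its partner chain, whose 5′ end overlaps that of Col4a1 on the opposite strand over the 22 bases shown above, had a log2 fold change of -0.52 (SE 0.17) in the same contrast with an adjusted p of 0.0988. Its libraries were at 41.8, 42.7, and 44.6 CPM at ZT 0, at 25.3 to 51.6 CPM at ZT 4, at 26.7 to 36.6 CPM at ZT 8, and at 27.97 to 35.67 CPM at ZT 12. They were at 17.8, 18.6, and 35.1 CPM at ZT 16 and at 22.6 to 33.4 CPM at ZT 20, which overlapped ZT 4 to 12. Col4a5, a chain of the specialized type IV network, was at -0.71 on the log2 scale (SE 0.24, adjusted p = 0.112). DESeq2 called Col4a2 and Col4a5 as well as Col4a1 and Col27a1, that is 4 members, among 743 of all 12008 genes. The cosine fit placed the peaks of Col4a1 and Col4a2 at ZT 2.28 and ZT 3.45, with amplitudes of 0.32 (adjusted p = 0.0381) and 0.36 (adjusted p = 0.0944). Without replicate 1 of ZT 16 on the HFD, edgeR called Col4a2 too (adjusted p = 0.018).

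Of 90 other matrix genes, in lists of collagen folding, processing, and breakdown, fibril and basement membrane partners, collagen and laminin receptors, and regulators such as Tgfb1, 69 were tested in this contrast and 3 were called, all higher at ZT 16 and 20, a number to be read against the 3.31% of all genes called. They were P4ha1 and P4ha2, alternative catalytic subunits of prolyl 4-hydroxylase, which stabilizes the collagen helix, and Bmp1, the protease that trims procollagen. On the HFD, P4ha1 was at 21.4 to 25.2 CPM at ZT 0, 10.1 to 15.3 CPM at ZT 4, 11.9 to 13.8 CPM at ZT 8, 19.7 to 33.6 CPM at ZT 12, 30.8 to 41.3 CPM at ZT 16, and 22.9 to 31.8 CPM at ZT 20. The libraries of ZT 4 and ZT 8 lay below all those of ZT 16 and ZT 20, whereas ZT 12 overlapped both of the later times and ZT 0 overlapped ZT 20 (contrast log2 fold change 0.76, SE 0.12, adjusted p = 0.0026). That of P4ha2 was 0.89 (SE 0.18, adjusted p = 0.0132) and that of Bmp1 0.36 (SE 0.08, adjusted p = 0.023). For time over ZT 0 to 12, 8 of 70 such genes were called, where 6.29% of all genes were, among them P4ha1 (adjusted p = 0.00203), Loxl4, a cross-linking oxidase (adjusted p = 0.00925), Bmp1 (adjusted p = 0.0134), and Dcn, the fibril-binding proteoglycan decorin (adjusted p = 0.0147). For diet over ZT 0 to 12, 0 of 70 were called with edgeR.

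The largest differences in the members accompanied the adipocyte-rich libraries. On AIN93G, ZT 16 and 20 were compared with ZT 0 to 12, which set 6 adipocyte-rich against 12 liver libraries. The fit tested 39 members, of which 36 were called, and 13587 genes, of which 75% were called (39.1% higher, 35.8% lower). A count of members is read here only over those that averaged 25 counts in each kind of library, because 10 members, among them Col4a6, Col6a6, Col7a1, Col8a1, Col11a2, Col17a1, Col23a1, Col28a1, and Lamc3, were tested only through the adipocyte-rich libraries, where they are high, so that their rise follows from the count minimum. Of the 29 members at the minimum in both kinds, 26 were called (89.7%), 22 higher and 4 lower at ZT 16 and 20, whereas 70.9% of the 11143 genes at that minimum were called, 33.9% higher and 36.9% lower. The median log2 fold change of these members was 3.89, against -0.03 over these genes. Scaling by total counts without TMM shifted the median of all genes tested to 0.76, and the share of all genes called went to 86.6%. The part of the summed markers in these differences was not tested, and they were in liver and adipocyte-rich libraries 123100 to 187400 against 18.7 to 85.2 CPM for 10 hepatocyte genes, 42.1 to 215 against 14070 to 27310 CPM for 10 adipocyte genes, 140.5 to 249 against 602 to 1631 CPM for 8 fibroblast genes, and 2.61 to 32.5 against 52.9 to 269.8 CPM for 5 smooth muscle genes. In liver most of the fibroblast sum was Dpp4, at a mean of 173.1 CPM over ZT 0 to 12, against 5.28 CPM for Dpt. Stellate cell genes overlapped, with 186.7 to 301 CPM in liver and 122.7 to 430.5 CPM in the adipocyte-rich libraries.

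Of the 7 fibrillar members at the count minimum in both kinds of library, 6 rose and 1 fell, against 33.9% and 36.9% of all genes at that minimum. Col3a1, which forms pliable fibers with type I, had a lowest, median, and highest level of 34.7, 63.4, and 93.7 CPM in the 32 liver libraries and of 1327, 1723, and 3525 CPM in the 10 adipocyte-rich libraries. Its log2 fold change was 4.93 (SE 0.20, adjusted p = 1.55e-12). Col1a1 and Col1a2, the chains of type I, rose by 5.59 (SE 0.27) and 5.10 (SE 0.19) on the log2 scale. Over all 10 adipocyte-rich libraries of both diets they were at 335 to 1001 CPM and 512 to 1427 CPM. The type V chains Col5a1, Col5a2, and Col5a3, which set fibril diameter, rose by between 3.95 and 4.54. Col11a2 was tested only through the adipocyte-rich libraries. It had 7 to 36 counts in the AIN93G liver libraries of ZT 0 to 12 and 29 to 244 in the AIN93G libraries of ZT 16 and 20. These ranges overlapped (fitted log2 fold change 1.55, SE 0.39). Col27a1 fell by 0.59 (SE 0.20, adjusted p = 0.0143), but without TMM its log2 fold change was 0.15.

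The 3 type IV chains at the minimum in both kinds rose, Col4a1 by 3.85 (SE 0.16), Col4a2 by 3.90 (SE 0.15), and Col4a5 by 1.16 (SE 0.18) on the log2 scale. Col4a6 had 1 to 10 counts in the 12 AIN93G liver libraries and 31 to 225 in the 6 adipocyte-rich ones. Col4a1 ran from 33.03 to 67.3 CPM in liver and from 362.8 to 1345 CPM in the adipocyte-rich libraries. Col4a3 and Col4a4, the chains of the kidney filter, were at or under 3.155 CPM in all libraries, and 5.65% of the exonic bases of Col4a3 are shared with a gene on the opposite strand. The type VI chains Col6a1, Col6a2, and Col6a3 rose by 4.59, 5.01, and 4.76 (SE 0.22 to 0.27), from at most 19.5 CPM in any liver library to at least 76.4 CPM in any adipocyte-rich library. Col6a6 had 0 to 17 counts in the 12 AIN93G liver libraries of ZT 0 to 12 and 47 to 109 in the 6 AIN93G libraries of ZT 16 and 20 (log2 2.73, SE 0.48).

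The type VII, VIII, and XXVIII genes Col7a1, Col8a1, and Col28a1, of which the first anchors epithelia to the dermis and the next belongs to vessel walls, had fitted log2 fold changes of 3.74 (SE 0.35), 3.61 (SE 0.47), and 4.98 (SE 0.48). Each was at or under 1.83 CPM in every liver library, and for Col28a1, with a mean of 2.58 counts in the AIN93G liver libraries, the value was 4.79 with liver set at 3 counts. The short chain gene with the highest median per kilobase in liver was Col8a2, at 0.0877 CPM per kilobase, where Col8a1 stood at 0.0851.

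Fibril-associated collagens differed among themselves. Col14a1, which coats fibrils, was not called and overlapped between the kinds of library, at 55.7, 68.4, and 102.9 CPM (lowest, median, and highest) in liver and 46.1, 73.6, and 138 CPM in the adipocyte-rich libraries, a difference of 0.14 on the log2 scale (SE 0.13, adjusted p = 0.353). Col20a1 was not called either (log2 -0.53, SE 0.24, adjusted p = 0.06), and its value without TMM was 0.18. It was called with DESeq2 (adjusted p = 0.0387) and without replicate 1 of AIN93G ZT 0, ZT 8, or ZT 12 or replicate 3 of AIN93G ZT 16 (adjusted p = 0.0237 to 0.0455). Col12a1 and Col16a1 rose by 2.46 (SE 0.24) and 2.70 (SE 0.17). The summed CPM of the 9 fibril-associated genes was 65.6 to 120 in liver and 91.3 to 205.5 in the adipocyte-rich libraries.

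The membrane-spanning and sugar-bearing collagens held 2 of the 4 members that fell. Col13a1, found at cell-matrix contacts, had 2.30, 5.59, and 8.74 CPM in liver (lowest, median, and highest) and 0.85, 1.49, and 2.51 CPM in the adipocyte-rich libraries, and it fell by 2.02 (SE 0.23, adjusted p = 6.05e-07), a 4.07-fold difference. Col17a1, a component of hemidesmosomes, had 0 counts in 8 of the 12 AIN93G liver libraries, at most 10 in the others, and 21 to 170 in the 6 adipocyte-rich ones. Its fitted log2 fold change of 6.37 (SE 0.76) rests on these near-0 counts, and with liver set at 3 counts it was 4.21. Col23a1 had 0 to 20 counts in the 12 AIN93G liver libraries of ZT 0 to 12 and 60 to 125 in the 6 AIN93G libraries of ZT 16 and 20. The closely related Col15a1 and Col18a1 went in opposite directions. Col15a1 rose by 4.31 (SE 0.31). Its lowest, median, and highest levels over both diets were 2.21, 7.75, and 24.5 CPM in liver and 94.8, 214, and 448.6 CPM in the adipocyte-rich libraries. Col18a1 fell by 3.21 (SE 0.21, adjusted p = 1.06e-09), a 9.23-fold difference. Over both diets it was at 817, 1071, and 1433 CPM in liver and 53.4, 118, and 217 CPM in the adipocyte-rich libraries, without overlap.

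Of the 9 laminin genes at the count minimum in both kinds of library, 7 rose, 1 fell, and 1 was not called. Among all genes at that minimum, 33.9% were called higher and 36.9% lower. The alpha chains Lama4, typical of vessels and fat cells, and Lama2, typical of muscle, rose by 5.21 (SE 0.16, adjusted p = 7.98e-14) and 3.94 (SE 0.26), and Lama5 by 3.36 (SE 0.17). Lama4 was at 3.83, 5.35, and 8.90 CPM in liver and 96.4, 183 and 304.5 CPM in the adipocyte-rich libraries. Lama1, the alpha chain best known from the embryo and the most abundant alpha chain per kilobase in liver (0.70 CPM per kilobase), fell by 1.82 (SE 0.31, adjusted p = 6.11e-05), with a median of 6.78 CPM in liver and 2.265 CPM in the adipocyte-rich libraries. Lama3 was not called (log2 0.62, SE 0.40, adjusted p = 0.173), and its ranges, 0.14 to 10.4 and 3.57 to 11.8 CPM, overlapped. Lamb1, Lamb2, and Lamc1, which pair with most alpha chains, rose by 3.92 (SE 0.17), 3.89 (SE 0.18), and 3.74 (SE 0.16). Lamb3 rose by 1.00 (SE 0.21). Lamc3, at 9 to 37 counts in the AIN93G liver libraries, had a log2 fold change of 2.37 (SE 0.24), with 6.27% of its exonic bases shared with a gene on the opposite strand.

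**Figure D4:**
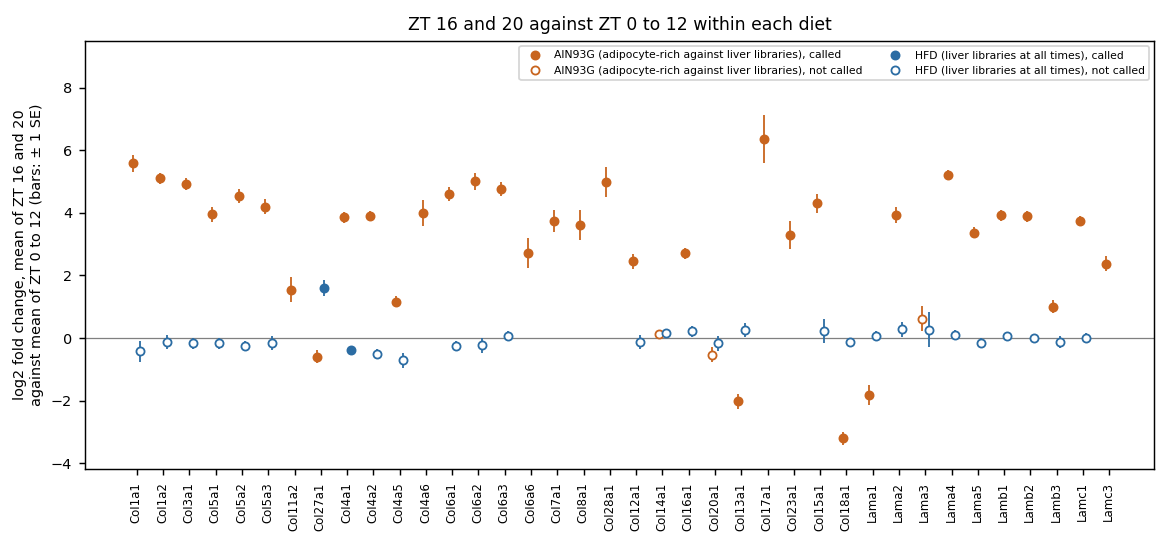
Log2 fold change of ZT 16 and 20 against ZT 0 to 12 (vertical axis, bars of 1 SE) for 38 of the 39 genes tested on AIN93G (orange) and those of them tested on the HFD (blue), with filled points for called genes. On AIN93G the contrast sets adipocyte-rich against liver libraries and runs from -3.21 (Col18a1) to 6.37 (Col17a1, 4.21 with liver set at 3 counts). Col4a6, Col6a6, Col7a1, Col8a1, Col11a2, Col17a1, Col23a1, Col28a1, and Lamc3 were tested only through the adipocyte-rich libraries, where they are high. Their filled points follow from the count minimum. On the HFD, with liver libraries throughout, only Col27a1 (1.59) and Col4a1 (-0.40) are filled. Without TMM the AIN93G value of Col27a1 is 0.15.

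The HFD against AIN93G at ZT 16 and ZT 20 set liver against adipocyte-rich libraries in the opposite order. These comparisons share the 6 AIN93G libraries with the contrast above. At ZT 16, 38 of 44 members were called and 55.7% of all genes (27% higher, 28.6% lower), and 14 of these members were at the count minimum in the adipocyte-rich libraries only. Of the 30 at the minimum in both kinds, 26 were called, 4 of them higher on the HFD and 22 lower, and the median of all 30 was -3.62 on the log2 scale, while 48.7% of the 11163 genes at that minimum were called (28% higher, 20.8% lower). At ZT 20, 36 of 41 members were called and 59.3% of all genes (28.1% higher, 31.2% lower), with 12 members at the minimum in the adipocyte-rich libraries only. Of the other 29, 25 were called, 4 higher and 21 lower, and the median of all 29 was -3.99, while 53.5% of 11036 genes were called (28.3% higher, 25.2% lower). The 4 higher members were Col18a1, Col13a1, Lama1, and Col27a1 at both times. For Col18a1 the log2 fold changes were 3.18 (SE 0.32, adjusted p = 0.000192) and 2.84 (SE 0.33, adjusted p = 0.000123). Col18a1 was at 68.0, 88.7, and 158 CPM on AIN93G and 857, 913, and 1022 CPM on the HFD at ZT 16. For Col27a1 they were 2.40 (SE 0.46, adjusted p = 0.00382) and 1.41 (SE 0.25, adjusted p = 0.00133), and for Lama1 2.26 (SE 0.43) and 1.58 (SE 0.52). Without TMM, Lama1 and Col13a1 were not called at ZT 20 (adjusted p = 0.146 and 0.0578), and Lama1 lost its call at ZT 20 without replicate 2 of AIN93G or any 1 of the HFD libraries (adjusted p = 0.0609 to 0.0853). Col11a1 and Col6a4 had 0 counts in the 3 HFD libraries of ZT 16, against 1.63 to 3.35 CPM and 0.41 to 7.55 CPM on AIN93G.

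Within the adipocyte-rich libraries edgeR called no difference. Of 44 members tested, 0 were called between ZT 20 and ZT 16 on AIN93G (3 with an unadjusted p under 0.05, 0 with DESeq2), where edgeR called 0% of all genes and DESeq2 156. Between the diets at ZT 24, with 2 adipocyte-rich libraries each, 0 of 44 were called with edgeR (0% of all genes), 9 had an unadjusted p under 0.05, and DESeq2 called 1, Col5a3, among 205 of all 14071 genes. Col5a3 was at 332.5 and 450 CPM on AIN93G and 87.8 and 119 CPM on the HFD (log2 -1.88, SE 0.57, adjusted p = 0.381). With all 3 libraries per diet of ZT 24, which mix both kinds, 0 of 44 members were called (0 with an unadjusted p under 0.05, 0 with DESeq2) and 0% of all genes in edgeR, with a median SE of 1.401 on the log2 scale.

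Ratios between chains were described in the 24 liver libraries of ZT 0 to 12 and the 10 adipocyte-rich libraries. The log2 ratio of Col4a1 to Col4a2 in counts per kilobase was 0.42 ± 0.21 (SD, n = 24) in liver and 0.47 ± 0.11 (SD, n = 10) in the adipocyte-rich libraries, means closer to each other than either SD, while Col4a1 itself differed 14.45-fold in the AIN93G contrast. The ratio of Col6a3 to Col6a1 was likewise -1.52 ± 0.32 (SD, n = 24) and -1.42 ± 0.20 (SD, n = 10). Col1a1 to Col1a2 was at -0.22 ± 0.44 (SD, n = 24) and 0.39 ± 0.15 (SD, n = 10), and Col3a1 to Col1a1 at 1.97 ± 0.48 and 1.27 ± 0.10. The alpha laminins differed most, with Lama4 to Lama5 at 0.29 ± 0.39 (SD, n = 24) and 1.63 ± 0.93 (SD, n = 10) and Lama2 to Lama4 at -1.12 ± 0.63 and -2.39 ± 0.26. Lama4 to Lama5 ran from -0.02 to 3.48 among the adipocyte-rich libraries.

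**Figure D5:**
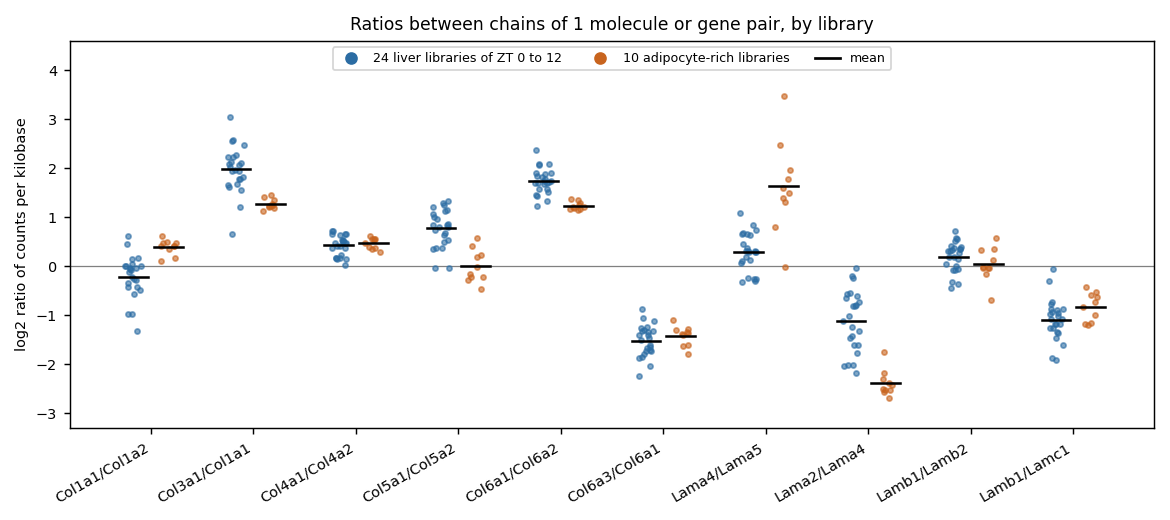
Log2 ratio of counts per kilobase (vertical axis) for 10 pairs of chains (horizontal axis), with 1 point per library, 24 liver libraries of ZT 0 to 12 in blue, 10 adipocyte-rich libraries in orange, and black lines for means. The Col4a1/Col4a2 means are 0.42 and 0.47, and the Lama2/Lama4 means are -1.12 and -2.39.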

How the data were processed

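Total RNA labelled as liver from 42 mice was poly(A)-selected, and paired-end libraries were made with a NEBNext Ultra kit, which marks no strand. The authors deposited 1 table of raw read counts per gene. The submitters' processing notes name fastp, STAR, HTSeq (version 0.6.1), DESeq, STAR-Fusion, and the build mm10. Whether counting used strand is not given in the sources used here, so a gene and an antisense partner cannot be told apart. At most 6.27% of the exonic bases of any member (Lamc3) are shared with another gene.

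Groups came from the labels (diet and time, 3 mice each), and replicate numbers are in accession order. Of 42 pairs of replicates, none agreed within sampling noise (chi-square per degree of freedom at least 18.0). Libraries with Alb over 10000 CPM were called liver. Counts were tested with edgeR 4.0.16 (quasi-likelihood F test, TMM, R 4.3.3, limma 3.58.1) over all genes whose counts averaged 25 or more in the fit, Benjamini-Hochberg adjustment over all of them, and a call at an adjusted p under 0.05. The fits were tested on simulated data. CPM values use total counts scaled by TMM over all 42 libraries (factors 0.811 to 0.970 in liver and 1.23 to 1.75 in adipocyte-rich libraries), levels per kilobase use the gene length of the deposited table, and ratios use a pseudocount of 0.5 counts. Alternatives were no TMM, no filter, 25 counts in every library, DESeq2 1.42.0, other sets of times, a cosine fit, and leaving out each library. At 14592481 to 21368409 counts per library, 25 counts lie near 1 to 2 CPM. Intervals and floors cover counting error only, and p-values cover the spread between these mice.

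The named genes were a list of type I, III, IV, V, VI, XIV, XV, and XVIII collagens and laminins, the most abundant gene per kilobase of each structural class, up to 10 called members with the largest fold per comparison, the extremes of each class in the AIN93G contrast, and up to 4 called genes of the matrix lists. Members, lists, and tests were chosen with earlier results of these data known. Col5a3, Col11a1, Col6a4, Col4a5, and the members named for a p under 0.05 were named after their values were seen. The single values of 1 laminin gene are not reported here, although counts and medians over all members include it.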

Additional observations from a re-analysis of the deposited data

Results flagged for a closer look

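In the 10 adipocyte-rich libraries, 44 members with a mean count of at least 25 were examined for a library far from the others, by whether the gap to the nearest library took more of the whole range than Dixon's critical value allows. In 9 members (20.5%) a library did so, against 9.72% of all 14071 genes at that count, where chance alone flags about 1 in 20 groups. In 8 of these 9 (18.2% of the members) the library was HFD ZT 24 replicate 2, which stood apart as the highest in 1.88% of all genes. These members share that library and are not independent of each other. Its levels were 60.59 CPM for Col8a1 (nearest library 18.83), 46.57 CPM for Col7a1 (21.1), 31.79 CPM for Col4a5 (17.98), and 20.42 CPM for Col4a6 (10.1). They were 21.05 CPM for Lamb3 (11.22), 18.91 CPM for Col17a1 (10.03), 12.17 CPM for Col9a2 (3.004), and 10.78 CPM for Col9a3 (3.044). Of the genes named, Col7a1, Col17a1, and Lamb3 belong to the anchoring of stratified epithelia. In the same library the summed level of 6 basal epithelium and keratinocyte genes was 106.4 CPM, against 15.3 to 54.4 CPM in the other 9, and that of 6 skeletal muscle genes was 10030 CPM. Their part in these values was not tested. The remaining value was Col5a1 in AIN93G ZT 20 replicate 1, at 439.3 CPM against 271.6 CPM in the nearest library.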

How the results depend on the processing

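Of 2184 values of single members under an alternative, 2116 kept their direction and side of the threshold, 38 lost the call, 28 gained it, and 2 reversed. Both reversals were without TMM in the AIN93G contrast, Col27a1 at 0.15 and Col20a1 at 0.18 on the log2 scale, neither called. Without TMM the median log2 fold change of all genes moved to -0.91 at ZT 16, -0.71 at ZT 20, 0.76 in the AIN93G contrast, 0.25 at ZT 24, -0.16 for ZT 20 against ZT 16, and 0.36 in the adipocyte-rich libraries of ZT 24. With no filter, the members called (and the share of all genes) numbered 2 for diet at ZT 0 (Col15a1, Col27a1, 1.77%), 1 at ZT 4 (Lamb3, 0.715%), 2 for diet over ZT 0 to 12 (Lamb3, Col15a1, 0.699%), 2 for time over ZT 0 to 12 (Col27a1, Col4a1, 5.79%), 5 for time on the HFD (Col1a1, Col4a1, Col4a2, Col27a1, Lama3, 8.16%), and 3 for ZT 16 and 20 against ZT 0 to 12 on the HFD (Col27a1, Col4a1, Col4a2, 3.57%). In these fits the prior degrees of freedom rose from 4.55 to 5.68 up to 76.95 or infinity, so that a gene's own spread between replicates carried little or no weight, and genes called for time on the HFD rose from 325 to 2333. These added calls are not evidence of a firmer result. With DESeq2 they numbered 1 for diet at ZT 0 (0.881%), 1 for diet over ZT 0 to 12 (0.783%), 2 for time over ZT 0 to 12 (12.5%), 4 for ZT 16 and 20 against ZT 0 to 12 on the HFD (6.19%), and 1 for diet in the adipocyte-rich libraries of ZT 24 (1.46%). With 25 counts in every library, which leaves fewer genes tested, they numbered 23 of 26 tested for diet at ZT 16 (50.2% of all genes) and 22 of 24 in the AIN93G contrast (71.3%). The counts over members at the minimum in both kinds of library were added after seeing the data. Leaving out ZT 12 gave 1 for diet over ZT 0 to 12 (Col27a1, 0.54%) and, chosen after seeing the data, 2 for time (Col27a1, Col4a1, 10.1%). Leaving out single libraries gave 35 to 39 for diet at ZT 16, 33 to 36 at ZT 20, 0 to 1 for diet over ZT 0 to 12, 1 to 2 for time over ZT 0 to 12, 1 to 2 for time on the HFD, 1 to 3 for ZT 16 and 20 on the HFD, 36 to 38 in the AIN93G contrast, and 0 elsewhere. The numbers for ZT 16, ZT 20, and the AIN93G contrast include members tested only through the adipocyte-rich libraries. The cause of the changes between settings was not tested except where stated. No paired analysis was possible because the labels give no replicate numbers that pair mice across groups. Depth limits members under 25 counts, which were not tested.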

Other observations

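Partners, receptors, and regulators of collagen and laminin were described in the contrast of ZT 16 and 20 with ZT 0 to 12 on AIN93G, in which tissue content and time cannot be told apart. Of 70 matrix genes that averaged 25 counts in both kinds of library, 61 were called, 50 higher and 11 lower, where 70.9% of all genes at that minimum were called. The list of fibril proteoglycans and glycoproteins had 11 of 13 higher and 1 lower, with a median log2 fold change of 3.53. Of 7 basement membrane partners, 5 rose and 2 fell, with a median of 3.44. The collagen folding list had 7 of 12 higher, 3 lower, and a median of 0.83. P4ha1 and P4ha2, subunits of prolyl 4-hydroxylase, rose by 1.28 (SE 0.13) and 2.04 (SE 0.21) on the log2 scale, whereas Bmp1, the procollagen protease, fell by 1.67 (SE 0.17) and Loxl4, a cross-linking oxidase, by 3.28 (SE 0.54).

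Summed markers of other cells also differed between the kinds of library, and their part in the members' levels was not tested. In liver and adipocyte-rich libraries they were 204.5 to 344 and 29.4 to 140 CPM for 7 sinusoidal endothelial genes, 61.6 to 114.5 and 184 to 298 CPM for 6 general endothelial genes, and 4.81 to 10.95 and 122.5 to 315 CPM for 5 Schwann cell genes. Macrophage genes were at 213.7 to 668 and 63.5 to 233 CPM, mesothelium genes at 2.34 to 17.1 and 1.09 to 3.05 CPM, lymphocyte genes at 2.30 to 7.95 and 1.67 to 504 CPM, and mammary epithelium genes, some of which liver expresses, at 224 to 404 and 49.9 to 644 CPM. Basal epithelium and keratinocyte genes were at 0.51 to 4.46 and 15.3 to 106 CPM. Skeletal muscle genes ran from 2.07 to 1920 CPM in liver, with AIN93G ZT 8 replicate 2 at 1920 CPM, and from 11.6 to 10030 CPM in the adipocyte-rich libraries.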
